A study of Mus musculus with 29 samples.

Results

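The genes followed here are 10 of the 23418 in the deposited count table, chosen by symbol as negative feedback regulators of the ERK cascade and its ETV targets. They are the dual-specificity phosphatase genes Dusp4, Dusp5 and Dusp6, the Sprouty genes Spry1, Spry2 and Spry4, the Spred genes Spred1 and Spred2, and the transcription factor genes Etv4 and Etv5. Polyadenylated RNA of mouse hearts was sequenced in 29 single-end libraries without strand and counted per gene, and all 10 genes were among the 13765 that passed a filter on low counts. The mice were on a C57BL/6J background and labelled 12 weeks old, in 4 genotypes and 2 conditions. One condition was transverse aortic constriction (TAC) for 4 weeks, in which the aorta is narrowed by surgery and the left ventricle pumps against a higher pressure, and the other was no stress. The TAC groups held 3 libraries with PKCδ ablated in the heart after birth (PKCδ hearts), 4 with a germline knockout of PKCε (PKCε hearts), 4 with both (combined hearts) and 4 of wild type. The unstressed groups held 3, 3, 4 and 4 libraries in the same order of genotypes. The labels name no promoter or Cre line for the PKCδ ablation and no sham operation, so a TAC effect includes that of surgery. RNA came from ventricular apexes by the protocol, although the tissue is labelled whole heart.

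Growth factor receptors and G protein-coupled receptors of the heart signal through RAS, RAF and MEK to the ERK kinases, and protein kinase C isoforms such as PKCδ and PKCε can feed into this cascade. ERK signalling in turn raises transcription of its own inhibitors. DUSP proteins remove phosphate from ERK, Sprouty and Spred proteins dampen the path from receptor to RAF, and Etv4 and Etv5 encode ETS-family factors transcribed downstream of FGF and ERK signalling. ERK activity itself was not measured in these libraries, which hold messenger RNA only.

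Promoter sequence is shown for Dusp5, Spry2 and Spred1, the members that differed from wild type in unstressed combined hearts. Each run is the 250 bases before the RefSeq start of the gene (GRCm38.p6), 5′ to 3′ on the strand of the gene, with motif matches in capitals. Dusp5 lies at chr19:53528895-53529144 (plus strand), Spry2 at chr14:105896820-105897069 (minus strand) and Spred1 at chr2:117120821-117121070 (plus strand).
Dusp5: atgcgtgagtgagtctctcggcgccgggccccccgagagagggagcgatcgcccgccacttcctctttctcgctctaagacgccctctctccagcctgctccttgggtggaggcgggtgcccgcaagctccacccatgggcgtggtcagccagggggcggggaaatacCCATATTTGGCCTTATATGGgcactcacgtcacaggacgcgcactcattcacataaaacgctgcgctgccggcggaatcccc
Spry2: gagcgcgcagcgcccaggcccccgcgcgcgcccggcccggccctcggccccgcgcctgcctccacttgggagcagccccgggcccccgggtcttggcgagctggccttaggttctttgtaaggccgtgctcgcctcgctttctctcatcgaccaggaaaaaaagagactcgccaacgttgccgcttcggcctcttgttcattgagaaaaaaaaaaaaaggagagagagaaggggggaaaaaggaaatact
Spred1: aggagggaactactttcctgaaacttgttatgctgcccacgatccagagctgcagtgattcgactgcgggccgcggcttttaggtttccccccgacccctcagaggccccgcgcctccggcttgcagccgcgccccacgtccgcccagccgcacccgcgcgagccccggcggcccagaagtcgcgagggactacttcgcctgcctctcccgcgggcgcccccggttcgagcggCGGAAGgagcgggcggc
The motifs searched on both strands were the ETS core in the form CGGAAG, the AP-1 site TGANTCA and the cAMP response element TGACGTCA. The CArG box, the binding sequence of serum response factor, was searched as well. Other forms of an ETS site were not searched, so a window without a match may still hold one. The CArG box was added after the sequences had been read. The capitals in Dusp5 are 2 adjoining CArG boxes, whose first bases lie 82 and 72 bases before the start, and the capitals in Spred1 are an ETS core 17 bases before the start. Spry2 held none of these letters in its window. A CArG box stands in 1.47% of the 32851 RefSeq promoter windows of this length, an ETS core in 13.6%, the AP-1 site in 6.75% and the cAMP response element in 1.55%. Promoter windows of 7 of the 10 members were searched. Dusp4 and Etv4 had none in the source used, and the window of Spry4 is not reported here. Among the searched members not shown, Dusp6 and Spred2 each held an ETS core, 62 and 43 bases before the start. No matches overlapped.

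Library totals over genes were 10523709 to 17314739 counts. Prkce, the gene of PKCε, was measured at 6.59 to 10.97 CPM (counts scaled to library size, with TMM factors) in the libraries labelled PKCε or combined, with 1 exception. That exception, the library labelled combined TAC replicate 2, held 31.5 CPM, against its label. Wild-type and PKCδ libraries held 33.3 to 52.9 CPM of Prkce, apart from the library labelled wild-type TAC replicate 2 with 24.0 CPM. Myh2 stood apart in the same 2 libraries. Wild-type TAC replicate 2 held 10.2 CPM of Myh2, against 0.07 to 0.28 CPM in the other wild-type TAC libraries. Combined TAC replicate 2 held 0.15 CPM, against 6.27 to 7.66 CPM in the other combined TAC libraries. Unstressed combined libraries held 0 to 0.17 CPM of Myh2, so a low level alone does not go against the combined label. Whether these 2 libraries were exchanged was not tested. Tests that use either library were repeated without both, and the calls and counts that this changed are given beside the results. Whole-gene counts of Prkcd (11.4 to 28.0 CPM) do not check the PKCδ label, since the labels name no deleted exon and the ablation was cardiac. Sex-chromosome transcripts contradicted many sex labels, with Xist in 19 of 23 libraries labelled male and Y-linked transcripts in 4 of 6 labelled female, and no library labelled female was unstressed. Either counted as present above 5% of its median in libraries low in the other. In 12 libraries Xist and Y-linked transcripts stood together, and the reason was not tested. The pre-ribosomal RNA Rn45s took 4.51% to 8.59% of counts in TAC libraries and 9.9% to 14.1% in unstressed libraries, without overlap. With Rn45s left out of the counts, no call reported for a member changed. That checks only the share of counts Rn45s took up, and why the conditions differed in it was not tested. Summed markers of skeletal muscle fibres (6 genes) also did not overlap, at 96.92 to 234.3 CPM in TAC and 41.59 to 89.77 CPM in unstressed libraries. Mybpc2 had 329 to 3609 reads per library, Myh2 0 to 332 and no other gene of the list above 34. Of 5 measured genes 3 were called higher and 0 lower after TAC on the mean over genotypes. In PKCδ and in PKCε hearts 1 was called higher. Myh2 averaged 8.79 CPM after TAC and 21.8 CPM unstressed in PKCε hearts, the other direction. The part of these markers in the TAC effects was not tested. Cardiomyocyte markers (8 genes) summed to 82380 to 107900 CPM across the libraries, and 4 atrial markers to 17.6 CPM or less. The labels do not tie libraries to animals, so a p-value reflects only how much these libraries varied. The closest pair of replicates, unstressed combined 2 and 4, still differed by more than sampling noise (chi-square per degree of freedom 1.56). In bulk RNA, fewer cells of a type and less RNA per cell cannot be told apart.

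Over all 4 genotypes together, Etv4, Dusp4, Spry1 and Etv5 were higher and Dusp5 and Spry4 lower in TAC than in unstressed hearts. The mean TAC effect over the 4 genotypes, on the log2 scale ± SE, was 1.75 ± 0.21 for Etv4 (edgeR quasi-likelihood test, Benjamini-Hochberg adjusted p = 4.38e-08) and 0.74 ± 0.14 for Dusp4 (adjusted p = 5.88e-05). It was 0.33 ± 0.06 for Spry1 (adjusted p = 4.63e-05) and 0.30 ± 0.10 for Etv5 (adjusted p = 0.0159). For Dusp5 it was -0.25 ± 0.08 (adjusted p = 0.00903) and for Spry4 -0.25 ± 0.06 (adjusted p = 0.00116). That is 4 members called higher, at an adjusted p below 0.05, where 28.1% of all tested genes were called higher, and 2 called lower, where 28.9% were. The share of members called is thus near that of all genes. The members' median effect was 0.11, against -0.0036 for all tested genes. Dusp6 (0.12 ± 0.08), Spry2 (-0.08 ± 0.05), Spred1 (0.10 ± 0.07) and Spred2 (0.04 ± 0.05) did not pass the test. With the sex label as a term, the calls of Dusp5 (-0.17, adjusted p = 0.166) and Etv5 (0.25, adjusted p = 0.11) ended, as they did among libraries labelled male (adjusted p = 0.102 and 0.0586). Without both doubted libraries the same 6 members were called, at 1.80 for Etv4, 0.81 for Dusp4, 0.35 for Spry1, 0.33 for Etv5, -0.26 for Dusp5 and -0.24 for Spry4.

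**Figure D1:**
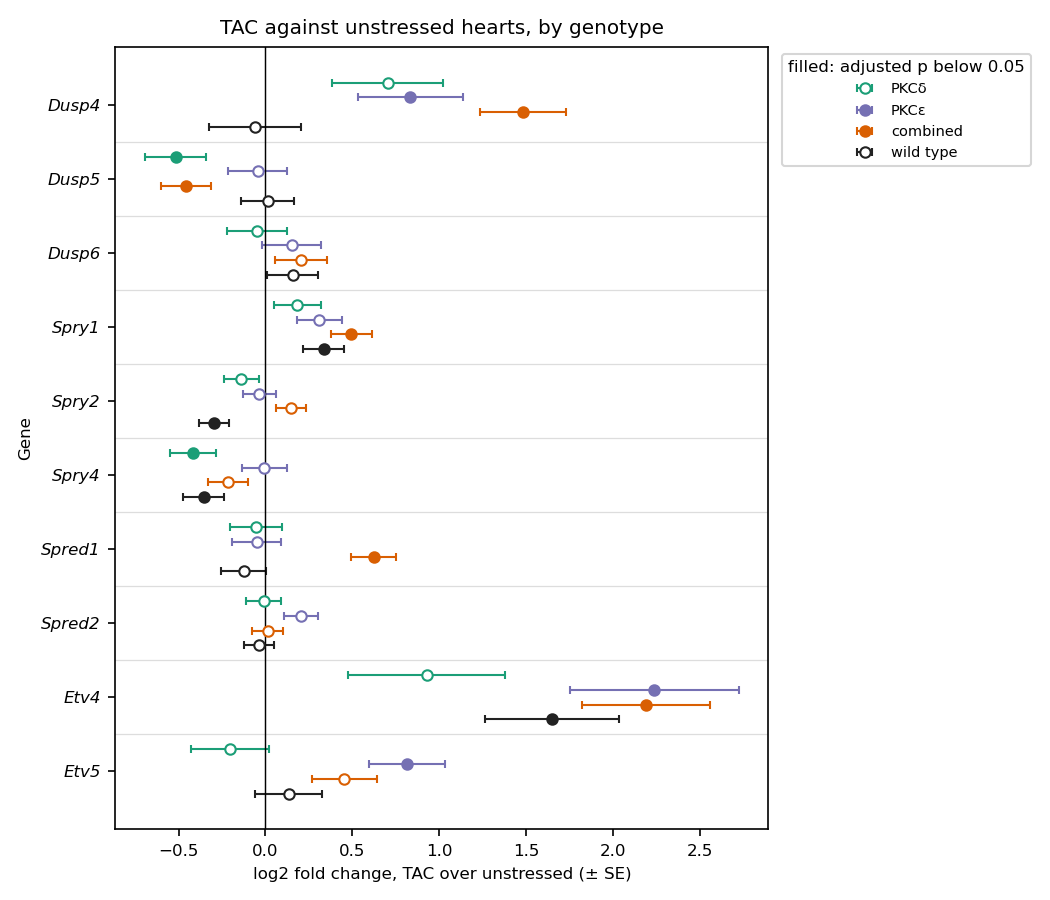
Log2 fold change of TAC over unstressed hearts (x axis, ± SE) for each of the 10 genes (y axis), with a point for each genotype and filled points at an adjusted p below 0.05. Etv4 lies right of 0 in every genotype, and Dusp4 lies at 1.48 in combined hearts and at -0.06 in wild-type hearts.

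Within single genotypes, different members passed the test. In PKCδ hearts 0 members were called higher (12.9% of all genes) and 2 lower (14%), Dusp5 and Spry4. In PKCε hearts 3 were called higher (14.5% of all genes), Dusp4, Etv4 and Etv5, and 0 lower (14.3%). In combined hearts 4 were called higher (22% of all genes), Dusp4, Etv4, Spred1 and Spry1, and 1 lower (21.8%), Dusp5. In wild-type hearts 2 were called higher (17.8% of all genes), Etv4 and Spry1, and 2 lower (17.9%), Spry2 and Spry4. At an unadjusted p below 0.05 the same test gave 3, 5, 6 and 4 members in the 4 genotypes in this order. Of all 13765 genes it gave 5213, 5420, 6992 and 6166. DESeq2 called 1, 3, 6 and 4 members. It called 26.7% of all genes in PKCδ, 28.7% in PKCε and 43.2% in combined hearts. Median effects of the 10 members were -0.05 in PKCδ, 0.18 in PKCε, 0.33 in combined and -0.01 in wild-type hearts, with medians of all tested genes between -0.0212 and 0.0018. By libraries, 1 member lay higher after TAC without overlap in PKCδ hearts (22.6% of all genes) and 3 lower (25.4%). In PKCε hearts 5 lay higher (17.9%) and 0 lower (17.5%), in combined hearts 4 higher (16%) and 1 lower (17.1%), and in wild-type hearts 2 higher (17.6%) and 1 lower (17.6%). Without the doubted libraries the wild-type count was 2, Etv4 and Spry2, and the combined count 6, with Etv5 added (0.57, adjusted p = 0.0264). The other combined effects were then 1.60 for Dusp4, 2.30 for Etv4, 0.57 for Spry1, 0.53 for Spred1 and -0.45 for Dusp5, and in wild type Etv4 stood at 1.72 and Spry2 at -0.27.

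Dusp4 encodes a nuclear phosphatase that acts on ERK and on other MAP kinases (chromosome 8, 34807610 to 34819894, plus strand, GRCm38.p6, as for the other genes). It stood at 6.56, 3.88, 4.16 and 6.32 CPM in combined TAC hearts, against 1.59, 1.61, 3.00 and 1.37 CPM in unstressed combined hearts. All 4 TAC libraries lay above all unstressed ones, of which replicate 3 was the highest. The fold change was 2.80 (log2 1.48 ± 0.25, adjusted p = 2.03e-05). In PKCε hearts Dusp4 measured 2.86, 2.71, 4.07 and 1.83 CPM after TAC and 1.82, 1.65 and 1.40 CPM unstressed. These groups touched without overlapping, and the log2 fold change was 0.83 ± 0.30 (adjusted p = 0.0377), a call that ended without unstressed replicate 1, 2 or 3 or TAC replicate 1 or 3 of PKCε (adjusted p = 0.0656, 0.0842, 0.129, 0.0627 and 0.137). In PKCδ hearts it held 1.95, 3.20 and 2.84 CPM after TAC and 1.53, 2.01 and 1.36 CPM unstressed, with 1 overlap (0.70 ± 0.32, adjusted p = 0.101, or 0.0354 when these groups were fitted alone). Wild-type hearts held 2.89, 1.59, 2.33 and 1.81 CPM after TAC and 1.95, 2.48, 1.71 and 2.74 CPM unstressed, fully overlapping (-0.06 ± 0.27, adjusted p = 0.89). After TAC, combined hearts thus stood above every wild-type library, by a log2 fold change of 1.28 ± 0.24 (adjusted p = 0.00438). The TAC effect of combined hearts exceeded that of wild type by 1.54 ± 0.37 (interaction, adjusted p = 0.00295). Without both doubted libraries these values were 1.26 (adjusted p = 0.00707) and 1.525 (adjusted p = 0.00562). With male-labelled libraries alone, among them 1 combined TAC library, they were 0.87 (adjusted p = 0.682) and 1.13 (adjusted p = 0.138), and fitted on the 2 TAC groups alone the difference from wild type was 1.27 with an adjusted p of 0.129.

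**Figure D2:**
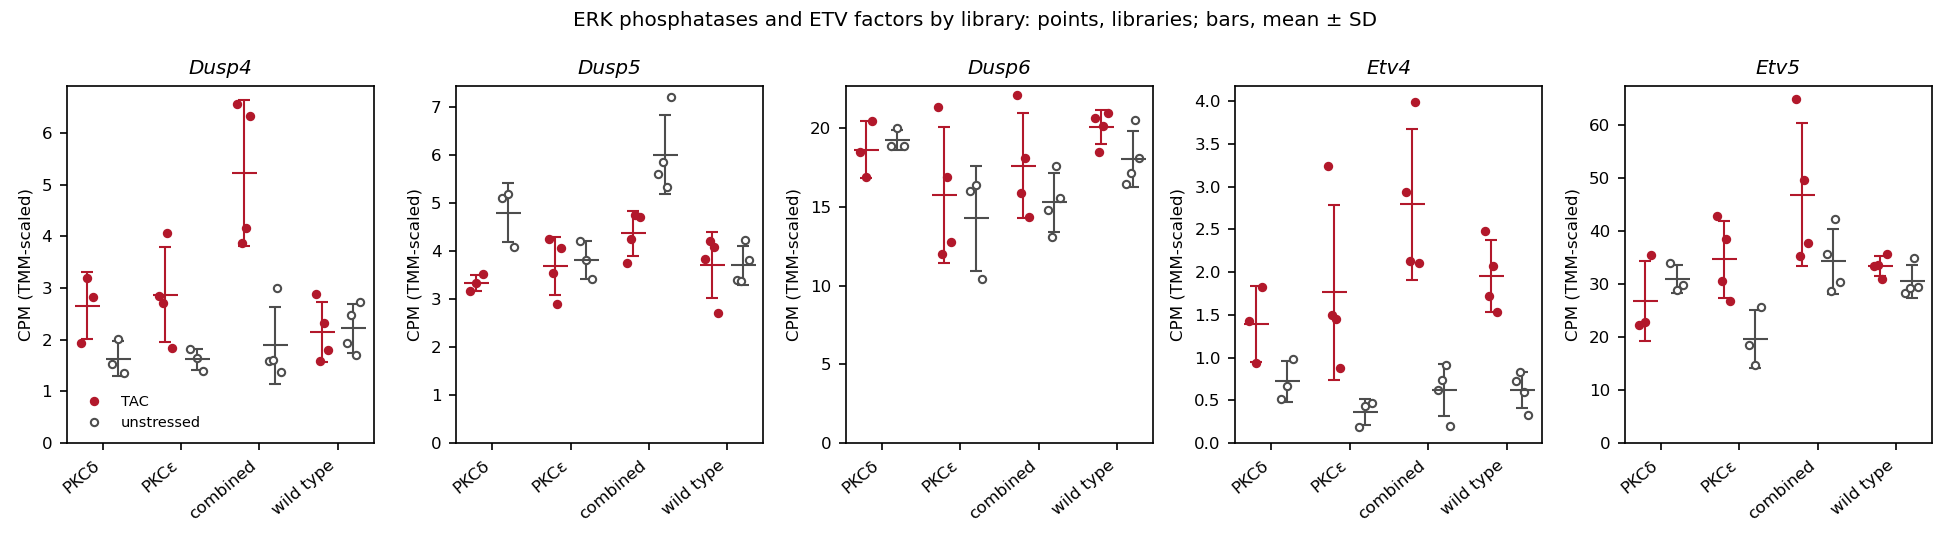
CPM (y axis) of the phosphatase and ETV genes in each library (points) with mean ± SD (bars), by genotype (x axis), TAC filled and left of unstressed. Dusp4 in combined TAC hearts lies at 3.88 to 6.56 CPM, above the 1.59 to 2.89 CPM of wild-type TAC hearts.

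Dusp5 encodes a nuclear phosphatase selective for ERK (chromosome 19, 53529145 to 53541809, plus strand). In unstressed combined hearts it held 5.61, 5.86, 5.34 and 7.21 CPM, against 3.39, 3.38, 4.22 and 3.81 CPM in unstressed wild-type hearts. The groups did not overlap, and the log2 fold change was 0.71 ± 0.15 (adjusted p = 0.000737). Unstressed PKCδ hearts held 5.10, 5.19 and 4.09 CPM, overlapping wild type (0.38 ± 0.17, adjusted p = 0.189), and unstressed PKCε hearts 4.21, 3.81 and 3.42 CPM (0.05 ± 0.17, adjusted p = 0.933). After TAC combined hearts held 3.76, 4.26, 4.75 and 4.71 CPM, all below their unstressed counterparts (-0.46 ± 0.14, adjusted p = 0.0109). PKCδ TAC hearts, at 3.18, 3.33 and 3.51 CPM, also lay below all unstressed PKCδ hearts (-0.52 ± 0.18, adjusted p = 0.0292). PKCε TAC hearts held 2.90 to 4.25 CPM (-0.04 ± 0.17) and wild-type TAC hearts 2.72 to 4.21 CPM (0.01 ± 0.15), both overlapping their unstressed groups. The call in combined hearts ended without unstressed combined replicate 4 (-0.34, adjusted p = 0.0706) and with the sex label as a term (-0.305, adjusted p = 0.196). The call in PKCδ hearts ended without TAC replicate 1, 2 or 3 or unstressed replicate 1 or 2 of PKCδ (adjusted p = 0.0902, 0.0714, 0.0517, 0.093 and 0.1), without a filter (adjusted p = 0.0612), with DESeq2 (adjusted p = 0.0565) and with the sex label or a Y-linked score as a term (adjusted p = 0.181 and 0.187). Among libraries labelled male neither was called (adjusted p = 0.304 in combined and 0.142 in PKCδ hearts). An opposite-strand gene covers 22.1% of the exonic bases of Dusp5, so its counts are uncertain without strand.

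Dusp6, the gene of a cytoplasmic ERK phosphatase (chromosome 10, 99263231 to 99267489, plus strand), did not pass the test in any of the 14 comparisons. It averaged 18.6 ± 1.80 CPM (SD) in PKCδ, 15.8 ± 4.30 in PKCε, 17.6 ± 3.35 in combined and 20.1 ± 1.10 in wild-type hearts after TAC. Unstressed means were 19.2 ± 0.66, 14.3 ± 3.33, 15.3 ± 1.87 and 18.0 ± 1.77 CPM in the same order, and every group overlapped its neighbour in the order of means. The largest differences from wild type were those of PKCε hearts, -0.35 ± 0.15 after TAC (adjusted p = 0.37) and -0.34 ± 0.17 unstressed (adjusted p = 0.308). In the unstressed pair the libraries did not overlap, with 16.0, 16.4 and 10.4 CPM in PKCε hearts, against 16.4 to 20.5 CPM in wild type, but PKCε replicate 2 lay only just below the lowest wild-type library.

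Spry1 encodes a Sprouty inhibitor of receptor tyrosine kinase signalling (chromosome 3, 37639947 to 37644599, plus strand). It was higher after TAC in every genotype without overlap of libraries, and the test called the rise in combined and wild-type hearts. Combined TAC hearts held 53.7, 31.8, 33.4 and 33.9 CPM, against 27.5, 28.5, 26.8 and 25.5 CPM in unstressed combined hearts (log2 0.50 ± 0.12, adjusted p = 0.00105). Replicate 1 stood far above the other 3, and without it the change was 0.29, still called (adjusted p = 0.0107). Among libraries labelled male the change was 0.30 and not called (adjusted p = 0.12). Wild-type hearts held 39.1, 39.8, 33.2 and 36.1 CPM after TAC and 30.7, 23.6, 31.5 and 31.8 CPM unstressed (0.33 ± 0.12, adjusted p = 0.0256). PKCε hearts held 30.2 to 34.8 CPM after TAC and 25.0 to 28.9 CPM unstressed (0.31 ± 0.13, adjusted p = 0.072, or 0.01 without combined TAC replicate 1), and PKCδ hearts 31.7 to 34.7 and 26.6 to 31.1 CPM (0.18 ± 0.14, adjusted p = 0.338). The non-overlap itself is common, since 16% to 22.6% of all genes were higher after TAC without overlap in a genotype. The wild-type call ended without TAC replicate 1 or 2 or unstressed replicate 2 of wild type (adjusted p = 0.0662, 0.0733 and 0.109) and without both doubted libraries (0.31, adjusted p = 0.0508). An opposite-strand gene covers 24.4% of its exonic bases, and its counts are uncertain for that.

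**Figure D3:**
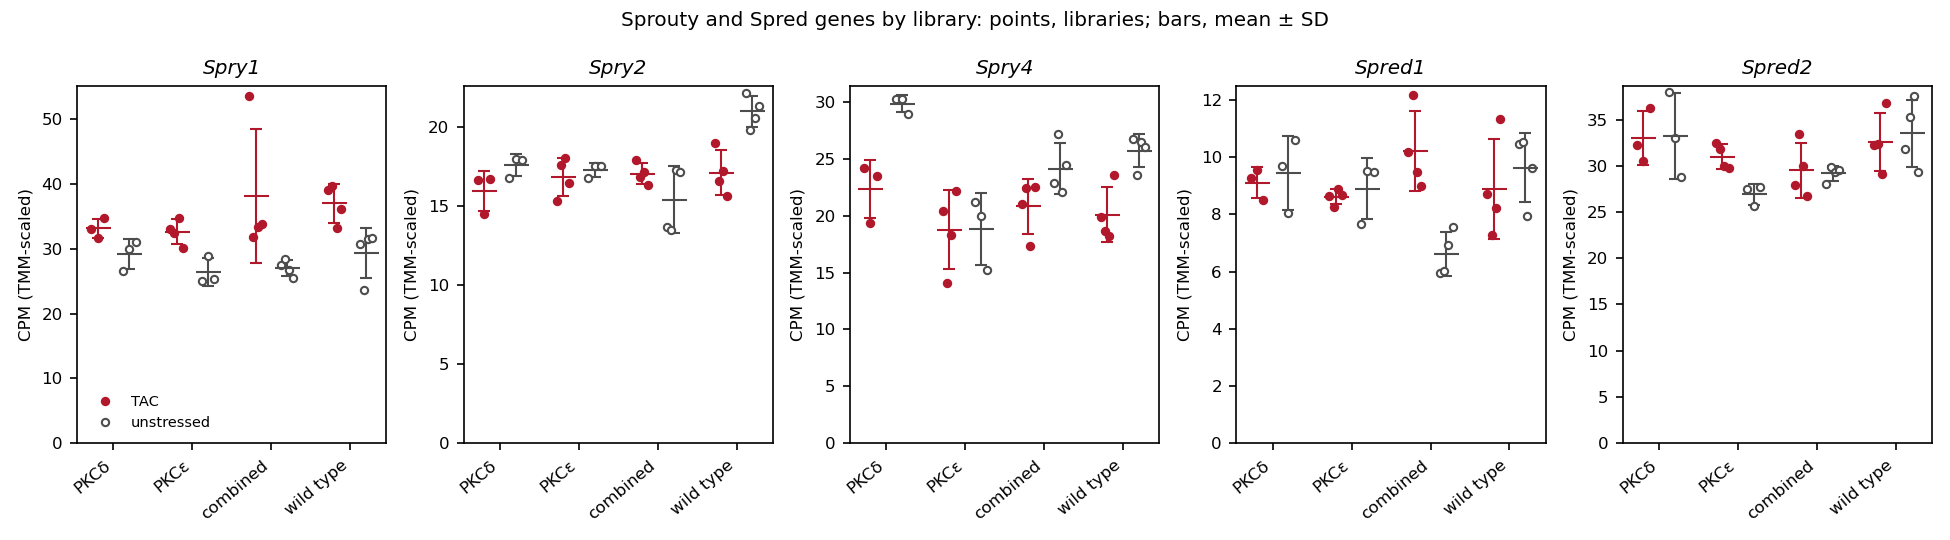
CPM (y axis) of the Sprouty and Spred genes in each library (points) with mean ± SD (bars), by genotype (x axis), TAC filled and left of unstressed. Spry2 in unstressed wild-type hearts, at 19.8 to 22.1 CPM, and Spred1 in unstressed combined hearts, at 5.96 to 7.55 CPM, are the highest and the lowest group of their gene.

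Spry2, a second Sprouty gene (chromosome 14, 105891947 to 105896819, minus strand), was highest in unstressed wild-type hearts. It held 13.7, 13.5, 17.3 and 17.2 CPM in unstressed combined hearts, against 22.1, 19.8, 20.6 and 21.3 CPM in unstressed wild-type hearts. The combined libraries fell into a lower pair, replicates 1 and 2, and a higher pair, and all lay below wild type (-0.45 ± 0.09, adjusted p = 0.000307). Unstressed PKCδ hearts, at 16.8, 18.0 and 17.9 CPM, and PKCε hearts, at 16.8, 17.5 and 17.5 CPM, also lay below every wild-type library, but the test did not call them (-0.26 ± 0.09, adjusted p = 0.108, and -0.28 ± 0.09, adjusted p = 0.104). After TAC wild-type hearts held 19.0, 16.6, 17.2 and 15.6 CPM, below all unstressed ones (-0.30 ± 0.09, adjusted p = 0.00809), while combined TAC hearts held 16.3 to 17.9 CPM (0.15 ± 0.09, adjusted p = 0.176). The TAC effect of combined hearts differed from that of wild type by 0.44 ± 0.12 (interaction, adjusted p = 0.00887; 0.425, adjusted p = 0.0262 without both doubted libraries), a call that ended among libraries labelled male (0.40, adjusted p = 0.152). In TAC hearts the 4 genotypes overlapped, at means of 15.9 to 17.1 CPM.

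Spry4 (chromosome 18, 38586247 to 38601347, minus strand) encodes another Sprouty inhibitor. In PKCδ hearts it held 24.2, 19.4 and 23.5 CPM after TAC, against 30.3, 30.3 and 28.98 CPM unstressed. All TAC libraries were lower (-0.42 ± 0.13, adjusted p = 0.0207), a call that ended without TAC replicate 2 or unstressed replicate 1 or 2 of PKCδ (adjusted p = 0.123, 0.0556 and 0.0539) and among libraries labelled male (adjusted p = 0.314). In wild-type hearts it held 19.9, 18.7, 18.3 and 23.6 CPM after TAC, against 26.8, 23.6, 26.5 and 26.1 CPM unstressed (-0.36 ± 0.12, adjusted p = 0.0182). The groups met at 23.6 CPM, and the call ended without TAC replicate 2 or 3 of wild type (adjusted p = 0.0553 and 0.0609) and without both doubted libraries (-0.31, adjusted p = 0.0602). Combined hearts held 17.4 to 22.6 CPM after TAC and 22.1 to 27.2 CPM unstressed (-0.22 ± 0.12, adjusted p = 0.137), and PKCε hearts 14.1 to 22.2 and 15.3 to 21.2 CPM (-0.01 ± 0.13, adjusted p = 0.975). Unstressed PKCε hearts, at 21.2, 20.0 and 15.3 CPM, lay below all unstressed wild-type hearts, with an adjusted p just past the threshold (-0.45 ± 0.13, adjusted p = 0.0504). DESeq2 called this difference (-0.45, adjusted p = 0.0316).

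Spred1, whose protein brings the RAS inhibitor neurofibromin to the membrane (chromosome 2, 117121071 to 117182279, plus strand), was lowest in unstressed combined hearts. It held 5.96, 6.01, 6.93 and 7.55 CPM there, against 10.5, 10.5, 7.94 and 9.63 CPM in unstressed wild-type hearts. The groups did not overlap (-0.55 ± 0.13, adjusted p = 0.00254). Combined TAC hearts, at 10.2, 12.2, 9.50 and 8.99 CPM, lay above all unstressed combined ones (0.62 ± 0.13, adjusted p = 0.00032). They overlapped wild-type TAC hearts, at 8.72, 7.27, 8.23 and 11.4 CPM (0.20 ± 0.13, adjusted p = 0.357). Without both doubted libraries this log2 difference between TAC groups was 0.01 (adjusted p = 0.98). The TAC effect of wild-type hearts was -0.12 ± 0.13 (adjusted p = 0.482), and the interaction was 0.75 ± 0.18 (adjusted p = 0.00382). Without both doubted libraries it was 0.56 (adjusted p = 0.0295). In PKCδ and PKCε hearts the TAC effects were -0.05 ± 0.15 and -0.05 ± 0.14. Spred2 (chromosome 11, 19924442 to 20024026, plus strand), a second gene of the family, was called in no comparison. Its means ran from 29.5 to 33.0 CPM after TAC and from 26.9 to 33.5 CPM unstressed, lowest in unstressed PKCε hearts (25.7 to 27.7 CPM, against 29.4 to 37.6 CPM in wild type; -0.31 ± 0.10, adjusted p = 0.0778). Unstressed combined hearts, at 28.1 to 29.9 CPM, differed from wild type by -0.20 ± 0.09 (adjusted p = 0.0968), which was called without unstressed wild-type replicate 4 (-0.26, adjusted p = 0.0424).

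Etv4 (chromosome 11, 101769747 to 101785310, minus strand) had the largest TAC effect of the 10 genes in the PKCδ, PKCε, combined and wild-type fits, at a low level. It held 2.94, 2.13, 3.99 and 2.11 CPM in combined TAC hearts, against 0.62, 0.73, 0.92 and 0.21 CPM in unstressed combined hearts. Counts behind these values were 28 to 68 reads after TAC and 3 to 11 unstressed, and the groups lay well apart (fold 4.57, log2 2.19 ± 0.37, adjusted p = 1.86e-05). In PKCε hearts it held 3.24, 1.495, 1.45 and 0.88 CPM after TAC and 0.19, 0.43 and 0.47 CPM unstressed (2.24 ± 0.49, adjusted p = 0.000923), with 2 to 6 reads behind the unstressed values. In wild-type hearts it held 2.48, 1.72, 2.07 and 1.53 CPM after TAC and 0.72, 0.83, 0.60 and 0.33 CPM unstressed, again without overlap (1.65 ± 0.39, adjusted p = 0.00132). In PKCδ hearts 1.43, 0.93 and 1.82 CPM stood against 0.51, 0.67 and 0.98 CPM unstressed, with an overlap and no call (0.93 ± 0.45, adjusted p = 0.133, or 0.0475 when these groups were fitted alone). The interactions did not show a difference between genotypes, with -0.72 ± 0.61 for PKCδ (adjusted p = 0.673), 0.59 ± 0.66 for PKCε (adjusted p = 0.901) and 0.54 ± 0.56 for combined hearts (adjusted p = 0.513). The calls in combined, PKCε and wild-type hearts held with each of the 29 libraries left out in turn.

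Etv5 (chromosome 16, 22381313 to 22439570, minus strand) was called after TAC in PKCε hearts alone of the 4 genotypes. In PKCε hearts it held 42.7, 30.6, 38.4 and 26.7 CPM after TAC, against 18.5, 14.7 and 25.6 CPM unstressed. The groups were separate by a narrow margin (0.82 ± 0.22, adjusted p = 0.00698), and the call ended without unstressed PKCε replicate 2 (0.65, adjusted p = 0.0517). The unstressed PKCε libraries lay below all wild-type ones, at 28.2 to 35.0 CPM (-0.63 ± 0.22, adjusted p = 0.132), a difference that DESeq2 called (-0.63, adjusted p = 0.0442). It was also called without unstressed PKCε replicate 3 (-0.88, adjusted p = 0.0466). Combined hearts held 64.7, 35.3, 49.5 and 37.6 CPM after TAC and 35.5, 28.7, 42.2 and 30.4 CPM unstressed, overlapping (0.45 ± 0.19, adjusted p = 0.0547). Without both doubted libraries this effect was called (0.57, adjusted p = 0.0264). Wild-type hearts held 30.9 to 35.6 CPM after TAC and 28.2 to 35.0 CPM unstressed (0.13 ± 0.19, adjusted p = 0.627), and PKCδ hearts 22.2 to 35.4 and 28.9 to 33.9 CPM (-0.20 ± 0.22, adjusted p = 0.541). The PKCε interaction, 0.68 ± 0.29, did not pass the test (adjusted p = 0.555).

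Per kilobase of exon, the 10 genes fell into an abundant and a scarce set. In unstressed wild-type hearts Spry1 stood at 10.1 ± 1.34 CPM per kb (SD), Spry2 at 10.03 ± 0.47, Etv5 at 7.43 ± 0.74, Spred2 at 7.26 ± 0.79, Dusp6 at 5.77 ± 0.57 and Spry4 at 5.42 ± 0.31. The scarce genes were Dusp5 at 1.498 ± 0.16, Spred1 at 1.42 ± 0.18, Dusp4 at 0.81 ± 0.17 and Etv4 at 0.20 ± 0.07 CPM per kb. Counting error is larger in the scarce set. In combined TAC hearts Dusp4 (1.91 ± 0.51) and Dusp5 (1.77 ± 0.19) stood at like levels per kb, while in unstressed combined hearts Dusp5 (2.43 ± 0.34) stood above Dusp4 (0.69 ± 0.27).

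Without stress, what the ablations changed among the 10 genes was measured against wild type. Combined hearts had 1 member called higher, Dusp5, where 15.3% of all genes were, and 2 called lower, Spry2 and Spred1, where 13.9% were. PKCδ hearts had 0 members called, with 5.37% of all genes called, 2 members at an unadjusted p below 0.05 (Dusp5 and Spry2) and 0 called by DESeq2. PKCε hearts also had 0 called by edgeR, with 3% of all genes called, 4 at an unadjusted p below 0.05 (Etv5, Spred2, Spry2 and Spry4) and 2 called by DESeq2 (Spry4 and Etv5). Of all 13765 genes, 2773 had an unadjusted p below 0.05 in PKCδ hearts and 2250 in PKCε hearts. By libraries, combined hearts had 1 member above wild type without overlap (15.7% of all genes) and 2 below (13.8%), and PKCδ hearts 1 above, Spry4 (10.5%), and 1 below, Spry2 (9.55%). In PKCε hearts 0 lay above (7.74% of all genes) and 5 below (7.72%). The 5 were Dusp6, Spry2, Spry4, Spred2 and Etv5, and the median of the 10 genes was -0.33, against 0.0023 for all genes. The 3 ablations share the same 4 wild-type libraries, so a member low in several of them, such as Spry2, rests in part on the same values.

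**Figure D4:**
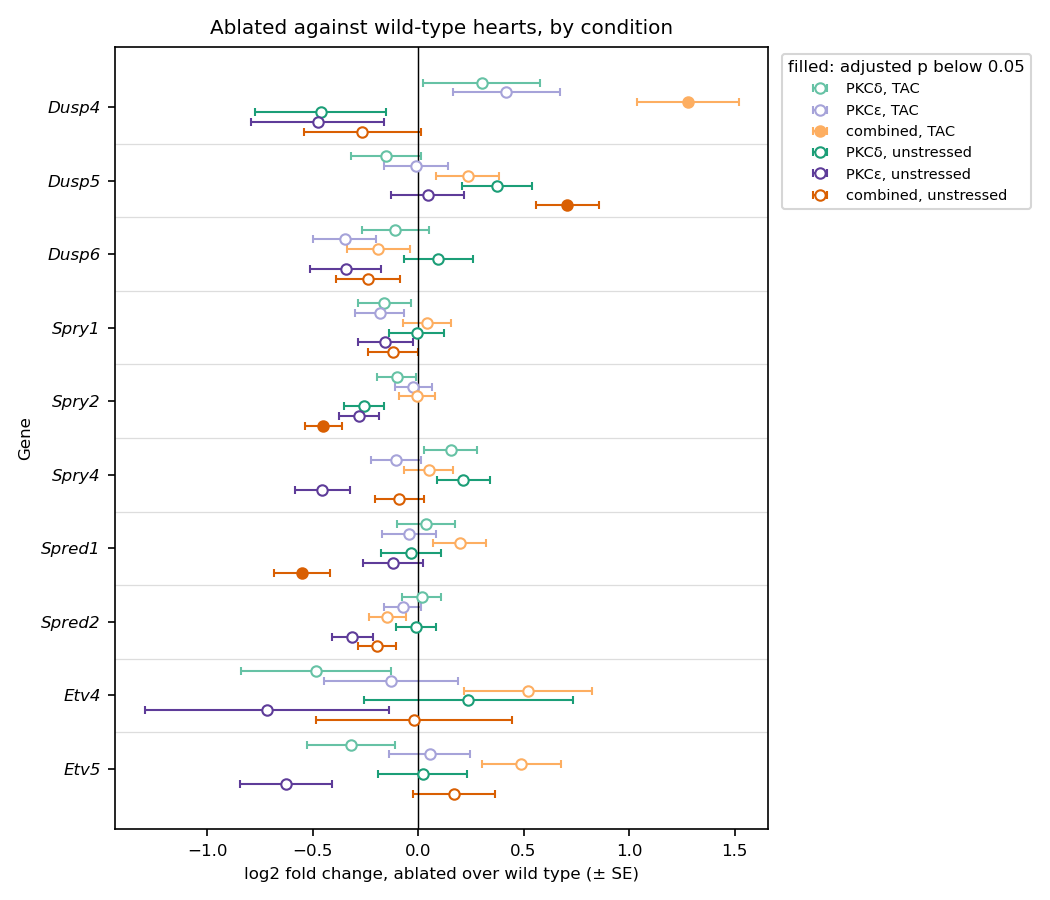
Log2 fold change of ablated over wild-type hearts (x axis, ± SE) for each of the 10 genes (y axis), with TAC in light and unstressed in dark colours and filled points at an adjusted p below 0.05. The 4 filled points are Dusp4 in combined TAC hearts (1.28) and Dusp5 (0.71), Spry2 (-0.45) and Spred1 (-0.55) in unstressed combined hearts.

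Markers of other cell types also differed in unstressed combined hearts. Of 10 endothelial markers 7 were lower in unstressed combined hearts than in wild type, with summed levels of 1220 to 1334 CPM in combined and 1522 to 1568 CPM in wild-type hearts. In combined hearts after TAC 6 of the 10 were higher, at 1404 to 1606 CPM, and 0 lower. Of 8 markers of smooth muscle cells and pericytes 4 were lower and 0 higher in unstressed combined hearts (1076 to 1329 CPM, against 1155 to 1275 CPM in wild type). Of 10 fibroblast markers 4 were lower and 0 higher in unstressed combined hearts (890.6 to 1404 CPM, against 1005 to 1107 CPM in wild type). Of 8 measured macrophage and monocyte markers 3 were higher and 0 lower (408.8 to 430.7 CPM, against 326.3 to 367.4 CPM in wild type), the direction of Dusp5. In combined hearts after TAC 9 of 10 fibroblast markers were higher and 0 lower. Of 8 smooth muscle and pericyte markers 5 were higher and 1 lower, and of 8 macrophage and monocyte markers 0 and 2. Beside these, 22% of all genes were called higher and 21.8% lower. Without both doubted libraries the 4 lists gave the same unstressed counts. In combined hearts after TAC 5 endothelial, 7 fibroblast and 3 smooth muscle and pericyte markers were then higher. No marker of these lists was at 0 in every library of a group. Their part in the levels of Spred1, Spry2 and Dusp5 was not tested.

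Of the 10 genes, Dusp4 was called between ablated and wild-type hearts after TAC, in combined hearts. Combined hearts had 1 member called higher, Dusp4, where 4.22% of all genes were, and 0 lower, where 2.54% were. The share of all genes called in either direction ranged widely, from 6.76% (930 genes) to 1.02% (140) without combined TAC replicate 1, 0.886% (122) with the sex label as a term and 0.0153% (2) with only these groups fitted. At an unadjusted p below 0.05 there were 2, Dusp4 and Etv5, and DESeq2 called 1. PKCε hearts had 0 called by edgeR, with 0.0436% of all genes called, 1 at an unadjusted p below 0.05 (Dusp6) and 0 by DESeq2. PKCδ hearts had 0 called by edgeR, with 0% of all genes called, 0 at an unadjusted p below 0.05 and 0 by DESeq2. Of all 13765 genes, 3302 had an unadjusted p below 0.05 in combined, 1553 in PKCε and 789 in PKCδ hearts. Without overlap of libraries, Dusp4 in combined hearts was the 1 member above wild type (4.66% of all genes), with 0 below (4.79%), and PKCδ hearts (4.45% above, 4.77% below) and PKCε hearts (3.48% above, 3.32% below) had 0. A p that misses the threshold does not show that levels were equal.

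The interaction asked whether a genotype's TAC effect differed from that of wild type. For combined hearts 3 members differed upward, Dusp4, Spred1 and Spry2, where 12.6% of all genes did, and 0 downward, where 12.5% did. For PKCδ hearts edgeR called 0 members (1.27% of all genes), with 1 at an unadjusted p below 0.05 (Dusp5) and 0 by DESeq2. For PKCε hearts it called 0 (0.0363% of all genes), with 2 at an unadjusted p below 0.05 (Dusp4 and Etv5) and 0 by DESeq2. Of all 13765 genes, 1869 had an unadjusted p below 0.05 in the PKCδ interaction and 1083 in the PKCε interaction. The 3 members of the combined interaction reached it in different ways. Dusp4 rose after TAC in combined hearts and did not change detectably in wild type. Spred1 rose in combined hearts, where it was low without stress, and Spry2 fell in wild-type hearts, where it was high without stress. For Spred1 the unstressed difference, the TAC effect and the interaction share the same unstressed combined libraries. For Spry2 they share the same unstressed wild-type libraries. These are thus not separate findings for either gene. Of 10 endothelial markers 4 had a higher TAC effect in combined hearts than in wild type and 0 a lower one, and of 8 macrophage and monocyte markers 0 and 5 (3 and 0, and 0 and 6, without both doubted libraries), and their part in these differences was not tested.

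Other genes of the pathway moved in both directions after TAC, on the mean over the 4 genotypes. Of 7 other feedback genes 4 rose and 3 fell, with Spred3 at 0.52 ± 0.10, Dusp7, the gene of a cytoplasmic ERK phosphatase, at -0.42 ± 0.07 and Etv1, the third member of the Etv4 and Etv5 family, at -0.52 ± 0.08. Etv4, Etv5 and Etv1 thus did not move together. Of 14 ligand genes 3 rose and 4 fell. Hbegf, an EGF receptor ligand, rose (1.28 ± 0.10), and the fibroblast growth factor genes Fgf1 (-0.51 ± 0.04) and Fgf16 (-1.04 ± 0.08) fell. Of 15 receptor genes 5 rose and 5 fell, with Fgfr3 at 0.96 ± 0.09 and the α1-adrenergic receptor genes Adra1a and Adra1b at -1.01 ± 0.10 and -1.03 ± 0.09. Of 22 genes of the cascade from RAS to ERK 5 rose and 10 fell, among them the adaptor genes Gab1 (-0.47 ± 0.04) and Frs2 (-0.31 ± 0.04). Of 18 genes on a list of immediate early genes and of ETS factors of the serum response, 12 rose and 3 fell. Egr2 (3.36 ± 0.43) and Junb (1.26 ± 0.16) rose, and Elk4, one of those ETS factors, fell (-0.41 ± 0.04). Without both doubted libraries the counts were 2 higher and 3 lower for the other feedback genes and 14 and 3 for the immediate early list, and the other 3 lists kept theirs. The effects of the genes named here were then between -1.01 (Adra1b) and 3.15 (Egr2), each in the same direction and called.

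**Figure D5:**
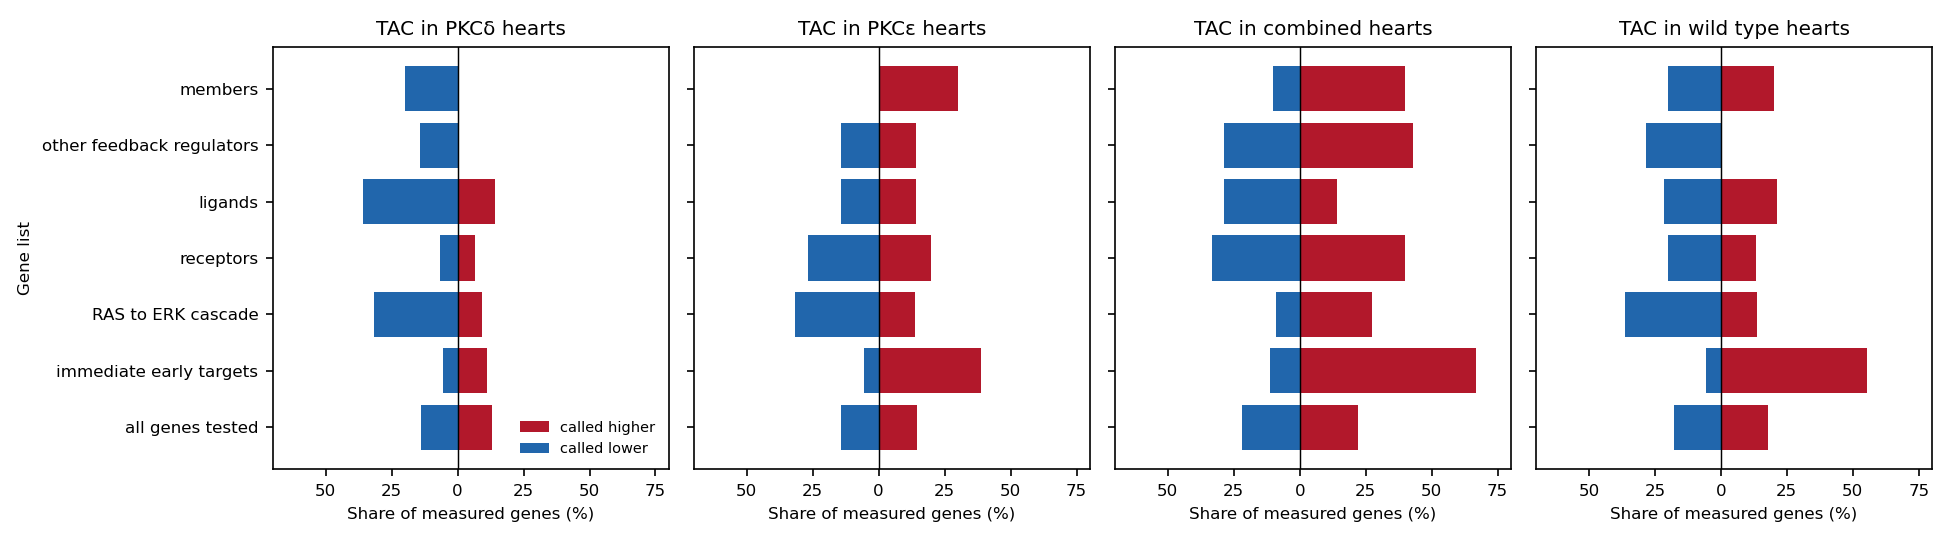
Share of measured genes (x axis, %) called higher (red, right) and lower (blue, left) after TAC in each genotype (panels), for the 10 members, 5 pathway lists and all tested genes (y axis). On the immediate early list 12 of 18 genes were called higher in combined and 10 of 18 in wild-type hearts (6 without both doubted libraries), while the members' shares are of 10 genes only.

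By genotype, the immediate early list had 2 of 18 genes higher and 1 lower in PKCδ hearts, 7 and 1 in PKCε, 12 and 2 in combined and 10 and 1 in wild-type hearts. Leaving out both doubted libraries gave 5 and 2 in PKCδ, 9 and 1 in PKCε, 12 and 2 in combined and 6 and 2 in wild-type hearts. The other feedback genes had 0 higher and 1 lower of 7 in PKCδ, 1 and 1 in PKCε, 3 and 2 in combined and 0 and 2 in wild-type hearts. Hbegf rose by 2.35 ± 0.20 in combined and 0.61 ± 0.19 in wild-type hearts, and the interaction was 1.74 ± 0.27 (adjusted p = 9.17e-05). With both doubted libraries left out these were 2.52, 0.64 and 1.87 (adjusted p = 5.36e-05). Etv1 was not called in combined hearts (-0.09 ± 0.15, adjusted p = 0.668) and fell in PKCδ (-0.78 ± 0.18), PKCε (-0.66 ± 0.16) and wild-type hearts (-0.56 ± 0.15), but its combined interaction did not pass the test (0.47 ± 0.21, adjusted p = 0.1). Fibroblast markers rose with TAC too, 8 of 10 on the mean over genotypes with 1 lower, and summed to 1646 to 3762 CPM in TAC hearts and 890.6 to 1404 CPM in unstressed hearts, and their part in the rise of Etv4 and Spry1 was not tested.

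Over the 8 group means, each member's pattern was compared by Pearson correlation with 10238 genes of at least moderate level. The genes most like Etv4 were Nbl1 (r = 0.994) and the fibroblast marker Mfap5 (r = 0.994), and those most like Spry1 were Lgals3 (r = 0.994) and Fxyd5 (r = 0.983). Spred1 was most like Gda (r = 0.991) and the endothelial marker Pecam1 (r = 0.971), and Dusp4 was most like the receptor gene Igf1r (r = 0.979) and Limd1 (r = 0.973). Dusp5 was most like Nono (r = 0.986), Dusp6 like Ttc13 (r = 0.971), Spry2 like Maml2 (r = 0.976), Spry4 like Aldh3a2 (r = 0.972), Spred2 like Colec11 (r = 0.988) and Etv5 like Ino80c (r = 0.979). These values describe 8 points each, all from the same libraries. They were picked as the highest of 10238 correlations, so a high r alone does not show a link between genes. Among the members themselves the closest pair was Spry1 and Etv4 (r = 0.974), followed by Dusp6 and Spred2 (r = 0.844) and Dusp4 and Etv4 (r = 0.812). The most negative r among pairs of members was that of Dusp5 and Spred1 (-0.61), over 8 group means and without a test. Unstressed combined hearts were the highest group for Dusp5 and the lowest for Spred1.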

How the data were processed

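RNA of frozen ventricular apexes was isolated with Trizol and its polyadenylated fraction sequenced from single ends without strand, per the labels' protocols. Per the submitters' processing notes, the authors used mm10, TopHat2 2.0.10, Bowtie2 and HTSeq to make the deposited raw counts per gene symbol. The notes also name DESeq and edgeR. Which annotation and settings they used is not given in the sources used here. Library files each listed 23420 genes and 5 totals outside genes, left out of library sizes. Of all reads 0.776% to 0.942% were ambiguous and 8.01% to 14.2% not uniquely aligned. The series table shared 23391 names with the files, with identical counts.

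Counts were tested with edgeR 4.0.16 (quasi-likelihood test, robust, limma 3.58.1, R 4.3.3), TMM normalization, a filter by group and all 29 libraries in a model of 8 group means with 21 residual degrees of freedom. Benjamini-Hochberg adjustment ran over 13765 genes in each of 14 comparisons, at 0.05. The sex label is an alternative term, because transcripts contradict it. The members, lists and rules were chosen with earlier results of these data known. Named pathway genes were up to 3 of each list with the smallest adjusted p in the mean TAC effect. One gene that this rule names is not reported here. Likeness was ranked over genes whose log2 CPM averaged 2 or more. Positions and promoter windows are from RefSeq GRCm38.p6 and exon lengths and overlaps from GENCODE.

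Alternatives were RLE, no filter, the sex label or a Y-linked score as a term, only libraries labelled male, the replicate block, only the groups compared, DESeq2 1.42.0, Rn45s left out, leaving out both doubted libraries, and each library in turn. On simulated counts with the design of the wild-type TAC effect, the test was checked for the recovery of known changes. Plots were made in Python 3.11.15 (matplotlib 3.10.9).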

Additional observations from a re-analysis of the deposited data

Results flagged for a closer look

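Each of 50 sets of 4 libraries (10 genes in 5 groups of 4) was screened for a library far from the others, which chance alone flags in about 1 in 20 sets. Spry1 in combined TAC replicate 1 stood at 53.7 CPM, while the other 3 libraries held 31.8 to 33.9 CPM. Dusp4 in unstressed combined replicate 3 stood at 3 CPM, while the others held 1.37 to 1.61 CPM. Spry1 in unstressed wild-type replicate 2 stood at 23.6 CPM, while the others held 30.7 to 31.8 CPM.

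The TAC effect differed between combined and wild-type hearts in 3 members, by the test of the difference itself. The difference was 1.54 for Dusp4 (log2, adjusted p = 0.00295), 0.75 for Spred1 (adjusted p = 0.00382) and 0.44 for Spry2 (adjusted p = 0.00887). The cause was not tested.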

How the results depend on the processing

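RLE normalization and leaving out Rn45s changed no call of a member and no count of members called. For the TAC effect in PKCδ hearts the share of all tested genes called was 26.9%, and 17.5% without a filter. That share was 23.6% with the sex label, 25.5% with the Y-linked score, 26.7% with DESeq2 and 37.5% with only the groups compared. Counts of members called moved as follows. The TAC effect in PKCδ hearts had 2 and fell to 1 without a filter, with the sex label or the Y-linked score as a term and with DESeq2, to 0 among libraries labelled male, and had 4 with only the groups compared. The TAC effect in combined hearts had 5, and 3 among libraries labelled male. The TAC effect in wild-type hearts had 4, and 2 without both doubted libraries. Unstressed PKCε against wild type had 0. It had 1 without a filter, with the sex label or the Y-linked score, among libraries labelled male, with the replicate block, with only the groups compared and without both doubted libraries, and 2 with DESeq2. Combined against wild type after TAC had 1, and 0 among libraries labelled male and with only the groups compared. The combined interaction had 3, and 1 among libraries labelled male. The uncalled TAC effect of Dusp4 in wild-type hearts (-0.06) turned to 0.021 among libraries labelled male and to 0.072 without both doubted libraries. The cause was not tested, beyond fewer libraries where libraries were left out.

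Leaving out each library in turn gave 0 to 2 members for TAC in PKCδ hearts, 1 to 4 in PKCε and 2 to 4 in wild-type hearts, and 0 to 1 for unstressed PKCε against wild type. The share of all genes called for TAC then ran from 17.7% to 28.7% in PKCδ and from 19.6% to 30.5% in PKCε hearts. Effects near 0 changed sign, with ranges of -0.121 to 0.018 (Dusp6, TAC in PKCδ), -0.153 to 0.04 (Spred1, TAC in PKCδ), -0.034 to 0.269 (Dusp6, TAC in PKCε), -0.143 to 0.005 (Spred1, TAC in PKCε) and -0.23 to 0.063 (Dusp4, TAC in wild type). Same-numbered replicates did not deviate together (r = -0.108 to 0.181), so the replicate block was not used; under it the count in combined TAC hearts was 6 and Etv5 was called in unstressed PKCε hearts (-0.70, adjusted p = 0.03). Etv4 had only 2 to 13 reads in unstressed libraries, which limits its precision.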

Other observations

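In unstressed combined hearts other genes of the pathway also differed from wild type. Of 14 ligand genes 6 were higher and 1 lower, with Fgf16 at 0.59 ± 0.15 (adjusted p = 0.00327) and Hbegf at -0.86 ± 0.20 (adjusted p = 0.00272). Of 15 receptor genes 2 were higher and 4 lower, of 22 genes of the cascade from RAS to ERK 1 and 5, of 7 other feedback genes 0 and 2, and of 18 immediate early genes 0 and 1. These stand beside 15.3% of all tested genes called higher and 13.9% called lower. Fgf16 and Hbegf each had the opposite direction after TAC in combined hearts, at -1.28 ± 0.15 and 2.35 ± 0.20, a comparison that shares the unstressed combined libraries.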
